A study of Mus musculus with 22 samples.

Results

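The MCM genes were followed through exit from a resting state in mouse NIH/3T3 cells, an established line of embryonic fibroblasts. They were taken by symbol from the deposited table of normalized counts as Mcm2, Mcm3, Mcm4, Mcm5, Mcm6, Mcm7, Mcm8, Mcm9 and Mcm10, and all 9 were among its 11208 genes. In the E2F1 line a construct integrated in the genome makes the transcription factor E2F1 when doxycycline is added, and the EV line carries the same kind of construct as an empty vector. Whether a line was a single clone or a pool, and how the E2F1 coding sequence differed from the mouse gene, were not given in the sources used here. All groups had first been held for 48 h in 0.25% serum. The E2F1 line was collected at 0 h and after 2, 6 and 12 h of 500 ng/ml doxycycline. The EV line was collected at 0 h, after 2, 6 and 12 h of doxycycline, and after 2, 6 and 12 h of 10% serum. Each of the 11 groups had 2 libraries of polyadenylated RNA. Doxycycline and serum changes in the EV line shared the same 0 h libraries. Nothing in the labels states that replicates were separate cultures, so p-values measure the spread between these samples, which may be technical.

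Mcm2 to Mcm7 encode the subunits of the ring-shaped helicase that unwinds DNA ahead of the replication fork. The ring is loaded onto origins in G1 with the help of the origin recognition complex, Cdc6 and Cdt1, a step called licensing, and becomes active only when Cdc45 and the GINS complex join it in S phase. Mcm8 and Mcm9 are related proteins that form a separate helicase used in repair by homologous recombination. Mcm10 shares the name but not the fold: it is a replication factor that helps to switch on the loaded helicase. E2F factors bind the promoters of many of these genes, and resting fibroblasts are known to lose most of their MCM proteins.

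Sequence close to the starts of these genes bears on a comparison with E2F1, so the stretches that hold E2F-type letters are shown here. RefSeq promoter windows (GRCm38.p6, 250 bases before to 50 after each start) were at hand for 8 members; Mcm4 had none. The letters searched on both strands were TTTCCCGC, TTTGGCGC, TTTGCCGC and TTTCGCGC. Of the 8 members, 5 held at least 1 of these 8-mers, against 2.26% of the 32851 windows and 5.10% of the 8609 genes of the table that have a window. The stretches below run 5′ to 3′ on the strand of the gene, with the matching letters in capitals.
Mcm6 (chr1:128359725-128359835, minus strand): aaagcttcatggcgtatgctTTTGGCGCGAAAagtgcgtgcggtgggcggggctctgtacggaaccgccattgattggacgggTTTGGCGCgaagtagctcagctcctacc
Mcm5 (chr8:75109336-75109387, plus strand): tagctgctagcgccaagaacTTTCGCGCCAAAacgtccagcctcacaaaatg
Mcm3 (chr1:20820265-20820294, minus strand): gGCGGGAAAacttgggaagtTTTGGCGCca
Mcm7, upstream match (chr5:138172021-138172068, minus strand): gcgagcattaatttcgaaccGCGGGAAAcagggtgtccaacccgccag
Mcm7, match after the start (chr5:138171849-138171878, minus strand): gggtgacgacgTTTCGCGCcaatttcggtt
Mcm8 (chr2:132816169-132816190, plus strand): gcgtcatagacGCGCCAAAaaa

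Mcm6 held 3 matches, and Mcm3, Mcm5 and Mcm7 held 2 each. The first pair in Mcm6 overlapped on opposite strands as the 12-base run TTTGGCGCGAAA, and the pair in Mcm5 was its reverse complement, TTTCGCGCCAAA. Only 4 of the 32851 windows held this run on either strand. From the start as +1, the matches lay within -110 to -40 in Mcm6 and within -153 to -142 in Mcm5. In Mcm3 and Mcm8 they lay after the start. These starts are those of the RefSeq windows. Both Mcm7 stretches lie inside the gene as GENCODE places it, with its minus-strand start at 138172422. The upstream match of Mcm7 is thus upstream of the RefSeq start of its window and not of the GENCODE start. Mcm2, Mcm9 and Mcm10 had none of these letters in the window, which says nothing of a site elsewhere. The 6-mer TTTGAA, known from promoters of later cell cycle genes, occurred in 1 of the 8 members, Mcm2, and in 17.9% of all windows. The shorter CCAAT box was found in 8 of 8 members and in 37.4% of all windows. A match is a description of letters and not a measured site.

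Values are normalized counts as deposited, and both libraries of a group are given, so that n = 2 throughout. Their totals ran from 34014608 to 46057140 per library. Changes are differences of log2(value + 1) between group means, which slightly understate low genes. A gene was called when its limma p-value, adjusted by the Benjamini-Hochberg method over all 11208 genes, was under 0.05. All 8 fibroblast markers looked for were in the table (Col1a1, Col1a2, Col3a1, Vim, Pdgfrb, Thy1, S100a4 and Fn1), and 0 of 12 epithelial, leukocyte and endothelial markers were; the lowest gene mean in the table was 99.6. The gene Ddx3y, looked at after its values were known, separated the lines at 0 h, with 580 and 521 in the E2F1 line and 9 and 4 in the EV line. It stood at 103 and 71 in the EV line at 2 h of doxycycline, at 132 and 170 at 2 h of serum, and at 48 and 35 at 6 h of serum. At 6 h of doxycycline the EV line had 31 and 18, at 12 h of serum 29 and 19, and at 12 h of doxycycline again 9 and 4. The E2F1 line had 329 and 316 at 2 h, 415 and 435 at 6 h, and 546 and 446 at 12 h. At 2 h the lines were therefore less separate in this gene than at 0 h, in both libraries of each 2 h group. The same held at 6 h to a smaller extent, in both libraries of each 6 h group. Whether the 2 h or 6 h libraries hold RNA of both lines was not tested. Each 2 h value below, and each 6 h value too, may therefore stand for a mixture rather than for the labelled line alone. Leaving all 2 h libraries out of the fit kept the count of MCM calls within 1 of its value in each of the comparisons that hold no 2 h group. Each group has its own mean, so this left those log2 changes as they were and altered only the shared spread. It cannot show whether the other groups hold RNA of both lines.

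In the E2F1 line every MCM gene was higher after 6 h of doxycycline. Counts under the mouse E2f1 symbol stood at 1703 and 1637 at 0 h and at 1535 and 1755 at 2 h. They were 3806 and 3602 at 6 h and 2683 and 2845 at 12 h. Whether these counts include reads from the construct was not tested. All 9 members were called higher at 6 h, in a comparison where 28.8% of all genes were called higher. All 9 were also higher at 12 h, where the share over all genes was 31.8%. The median change of the members was 1.14 at 6 h and 1.14 at 12 h, against -0.03 and -0.02 over all genes. In each member both libraries of each of these times lay above both 0 h libraries. How many of all genes separated in this way was not counted.

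Among the ring subunits, Mcm3, which contacts the loading machinery, went from 3274 and 2985 to 9894 and 9676 at 6 h, and to 7063 and 7692 at 12 h. Its log2 change at 6 h was 1.65 (SE 0.17, adjusted p 2.03e-07), or 3.13-fold. Mcm6, part of the Mcm4-Mcm6-Mcm7 side of the ring, rose from 4817 and 4588 to 13434 and 14305, a log2 change of 1.56 (SE 0.15, adjusted p 1.03e-07). These were the highest 6 h changes of the 6 subunits, although the intervals of Mcm3 (1.30 to 2.00), Mcm6 (1.24 to 1.88) and Mcm5 (0.87 to 1.74) overlapped. Mcm5 forms with Mcm2 the gate through which DNA enters the ring. It went from 2991 and 2513 to 6843 and 6710, a change of 1.31 (adjusted p 4.27e-05).

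The other subunits rose by about the same factor as one another. Mcm2 changed by 1.06 at 6 h, from 5042 and 4562 to 9908 and 10145 (adjusted p 3.28e-07). Mcm4 changed by 1.07, from 5192 and 4359 to 10407 and 9609 (adjusted p 5.73e-07). Mcm7 changed by 1.14, from 4809 and 4124 to 10186 and 9520 (adjusted p 5.12e-07). At 12 h the 6 subunits were still above 0 h, by 0.71 in Mcm2 to 1.24 in Mcm3. Summed over Mcm2 to Mcm7, the libraries held 26125 and 23131 normalized counts at 0 h, 60672 and 59965 at 6 h and 45489 and 50482 at 12 h, so the summed level was highest at 6 h in this line.

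**Figure D1:**
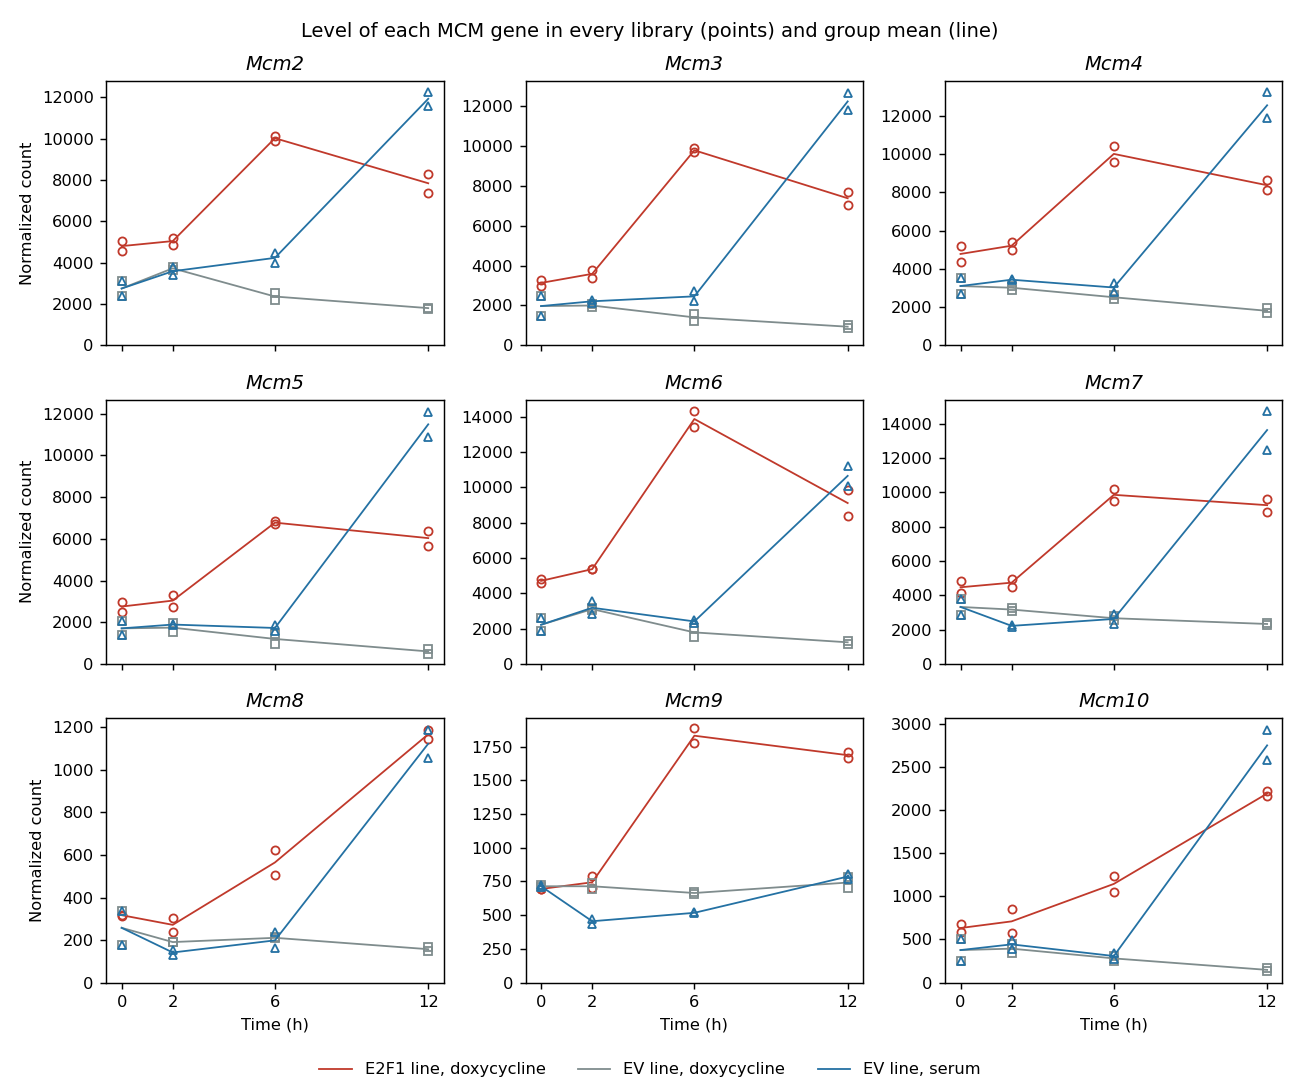
Normalized count (y axis, from 0) of each MCM gene against time in hours. Open points are the 2 libraries of a group, lines join group means, and the EV line at 0 h starts both EV curves. Mcm2 to Mcm7 peak at 6 h with E2F1 and at 12 h with serum; Mcm8 and Mcm10 are highest at 12 h in both, and Mcm9 is highest in the E2F1 line at 6 and 12 h.

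Mcm8 and Mcm10 followed another course in the E2F1 line. Mcm8 went from 314 and 320 at 0 h to 625 and 505 at 6 h and 1146 and 1190 at 12 h. Mcm10 went from 676 and 588 to 1233 and 1053 and then to 2165 and 2215. From 6 to 12 h both rose further, Mcm8 by 1.05 (SE 0.24, adjusted p 0.00244) and Mcm10 by 0.94 (SE 0.26, adjusted p 0.00935). Over the same interval Mcm6 fell by 0.61 (SE 0.15, adjusted p 0.0045) and Mcm2 fell by 0.36 (SE 0.11, adjusted p 0.0194). So 2 members were called higher and 2 lower between these times, where 15.1% and 20.2% of all genes were. Mcm3 had -0.41 (adjusted p 0.0644), Mcm4 -0.26 (0.0979), Mcm5 -0.17 (0.55), Mcm7 -0.09 (0.597) and Mcm9 -0.12 (0.374), and were not called. When only the groups compared were fitted, Mcm3 (adjusted p 0.00279) and Mcm4 (0.0354) were called lower too, which made 6 calls. Of the 4 calls, 2 were left without replicate 2 of the 6 h group and 2 without replicate 1 of the 12 h group. Mcm8 was called in each of these fits, while Mcm10 was not called in the first, Mcm6 not in the second and Mcm2 in neither. The change of Mcm2 ran from -0.44 to -0.27 over all alternatives tried. The 6 h rises of Mcm8 (0.82, adjusted p 0.00768) and Mcm10 (0.85, adjusted p 0.0107) were the least secure of the 9. They had adjusted p of 0.0814 and 0.081 without replicate 1 of the 6 h group, and Mcm10 had 0.0753 without replicate 2 of the 0 h group.

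The EV line given doxycycline shows the same interval without the E2F1 insert. No MCM gene was called higher there at 6 or 12 h. At 6 h limma called 0 of 9 members, in a comparison where 0.134% of genes were called in either direction; 4 members had an unadjusted p under 0.05. The 9 log2 changes at 6 h ran from -0.51 to -0.10. When replicate 1 of the EV 0 h group was left out, Mcm3 was called at 6 h, with -0.82 (adjusted p 0.0204), so the count became 1. At 12 h 7 of 9 were called lower, against 3.42% of all genes. Mcm5 went from 1375 and 2035 to 479 and 720, a log2 change of -1.51 (SE 0.21, adjusted p 0.000664). Mcm10 went from 249 and 504 to 131 and 163, with a change of -1.27 (adjusted p 0.00905). In each of the 7, both 12 h libraries lay below both 0 h libraries. These 7 were picked by their calls in the same libraries, so this adds no separate evidence. The share of all genes with such separation was not counted.

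The 0 h libraries of the EV line differed from each other in these genes. Replicate 2 stood 1.29 to 2.02 times above replicate 1 in the 7 members called at 12 h, 1.91 times in Mcm8 and 0.979 times in Mcm9. Without replicate 2 of that group only Mcm5 was called at 12 h of doxycycline (-1.23, adjusted p 0.0265), so 1 of the 7 calls was left. Without replicate 1 the count was 8. Without replicate 1 of the EV 12 h group it was 3, and it was 1 when only the EV 0 h and 12 h libraries were fitted. Mcm8 had a change of -0.64 (adjusted p 0.159) and Mcm9 of 0.05 (adjusted p 0.838).

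A test of the difference itself, in which the doxycycline change of the EV line is taken off that of the E2F1 line, called all 9 members higher at 6 h and at 12 h. Over all genes 22.2% were called higher at 6 h and 27.3% at 12 h. At 6 h the differences ran from 1.04 in Mcm8 (adjusted p 0.0228) to 2.10 in Mcm3 (adjusted p 1.85e-06). At 12 h they ran from 1.23 in Mcm9 (SE 0.14, adjusted p 1.07e-06) to 3.07 in Mcm10 (SE 0.37, adjusted p 1.93e-06). For Mcm9 at 12 h the E2F1 line had changed by 1.28 and the EV line by 0.05. In other members a fall in the EV line made up part of the difference. For Mcm10 the E2F1 line had changed by 1.79 and the EV line by -1.27, and for Mcm5 by 1.14 and -1.51. The EV fall at 12 h was called in 7 of 9 members and depended on single EV libraries, as given above. The 6 h difference of Mcm8 passed the threshold narrowly. It was not called in 7 of the 16 alternatives, among them the fit of only the groups compared (limma adjusted p 0.0594). Leaving out replicate 2 of the EV 0 h group gave 0.58 for it (adjusted p 0.156) and 0.69 for Mcm10 (adjusted p 0.115), so that 7 members were called.

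**Figure D2:**
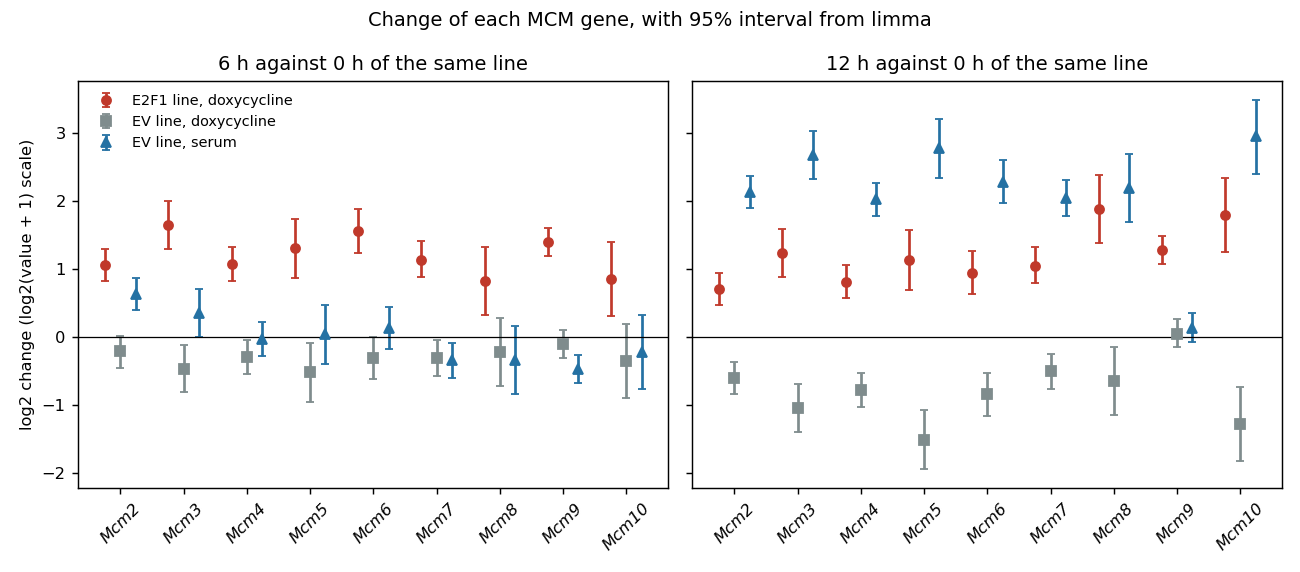
Log2 change (y axis, log2(value + 1) scale) of each MCM gene at 6 h (left) and 12 h (right) against 0 h of the same line, with 95% intervals from limma. At 6 h the 9 red points of the E2F1 line lie between 0.82 and 1.65; at 12 h the blue points of serum lie above them for 8 members, and Mcm9 is the exception at 0.14.

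Serum, the complete stimulus for leaving the resting state, raised MCM genes late. At 12 h 8 of 9 members were called higher, against 36% of all genes, and the median change of the members was 2.19 against 0.05 over all genes. Mcm5 went from 1375 and 2035 to 12093 and 10889, a log2 change of 2.78 (SE 0.21, adjusted p 2.83e-09), or 6.86-fold. Mcm10 went from 249 and 504 to 2922 and 2574, a change of 2.95 (SE 0.26, adjusted p 2.21e-08). Mcm7, whose level at 0 h was 2873 and 3767, reached 14766 and 12489, a change of 2.05 (SE 0.12, adjusted p 3.24e-10). The other subunits changed by 2.03 (Mcm4) to 2.68 (Mcm3), and Mcm8 by 2.19 (adjusted p 2.89e-07). In the authors' deposited table for serum at 12 h, which lists genes with an absolute log2 change of at least 2, the same 8 members appear with 2.05 (Mcm4) to 2.97 (Mcm10). None of the 9 is in the authors' deposited tables for the other 8 comparisons with 0 h. Those tables hold no entry below 2.0 in size on the log2 scale either. The highest member changes in the E2F1 line, by limma, were 1.65 at 6 h and 1.88 at 12 h. Absence from the E2F1 tables therefore does not show that these genes were unchanged.

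Mcm9 stood apart under serum. It had 722 and 707 at 0 h and 805 and 768 at 12 h, a change of 0.14 with a 95% interval of -0.07 to 0.35 (adjusted p 0.225). At 2 h it had fallen to 472 and 438, a change of -0.65 (SE 0.10, adjusted p 1.03e-05), and at 6 h to 513 and 522 (-0.46, adjusted p 0.000432). Between 6 and 12 h of serum all 9 members rose, against 19.3% of all genes, Mcm9 by 0.60 (adjusted p 9.33e-05) and the other 8 by 1.50 (Mcm2) to 3.16 (Mcm10). The 12 h serum libraries also exceeded the 12 h doxycycline libraries of the same line in 8 of 9 members, by 2.54 in Mcm7 to 4.29 in Mcm5, while 37.9% of all genes did. Mcm9 differed there by 0.09 (interval -0.12 to 0.29, adjusted p 0.448).

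Early serum changes of the other members were small and mixed. At 2 h 2 members were called higher and 3 lower, where 37.5% and 33.5% of all genes were. Mcm2 (0.39, adjusted p 0.00413) and Mcm6 (0.53, adjusted p 0.00409) were higher. These are the serum libraries with Ddx3y at 132 and 170, and both genes were higher in the E2F1 line than in EV cells at 0 h (0.82 and 1.10); the part of this in their rise was not tested. Mcm7 went to 2288 and 2147 (-0.57, adjusted p 0.000504) and Mcm8 to 131 and 152 (-0.79, adjusted p 0.00639), both below both 0 h libraries. At 6 h Mcm2 was higher (0.63, adjusted p 6.92e-05), while Mcm7 (-0.34, adjusted p 0.0236) and Mcm9 were lower, where 36.5% and 31% of all genes were called in these directions. With every library scaled to the same total, the 2 h values of Mcm2 and Mcm6 were 0.02 and 0.16, with adjusted p of 0.874 and 0.36; this scaling moved the median of all genes by -0.374. With replicate 1 of the EV 0 h group left out the 2 h count was 3, all lower, and the 6 h count was 5, of which 4 were lower. With replicate 2 of that group left out instead, 7 were called at 2 h, of which 5 were higher, with Mcm3 at 0.57 (adjusted p 0.00191), Mcm4 at 0.34 (0.0233) and Mcm10 at 0.82 (0.00736) in addition. At 6 h Mcm3 (0.72, adjusted p 0.000312) and Mcm6 (0.39, adjusted p 0.0407) were then called higher. Without replicate 1 of the 2 h serum group the 2 h count was 3. Without replicate 2 of the EV 0 h group Mcm8 at 2 h had -0.32 (adjusted p 0.218) and Mcm7 at 6 h had -0.14 (adjusted p 0.367), and without replicate 2 of the 6 h serum group Mcm7 had -0.17 (adjusted p 0.3).

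The E2F1 and serum responses were compared by subtracting the serum change from the E2F1 change at the same time. At 6 h E2F1 had moved all 9 members further, against 30.3% of all genes called in that direction. The differences ran from 0.43 in Mcm2 (SE 0.16, adjusted p 0.0264) to 1.86 in Mcm9 (SE 0.14, adjusted p 4.7e-09). Between 6 and 9 members were called when each library was left out in turn. Without replicate 2 of the EV 0 h group it was 6, with Mcm2 at 0.23 (adjusted p 0.187), Mcm8 at 0.69 (0.0575) and Mcm10 at 0.56 (0.146). At 12 h the direction was the opposite for most members: 7 of 9 had changed less under E2F1 than under serum, against 23.8% of all genes, and 1 of 9 had changed more, against 25%. Mcm5 had the lowest difference, -1.64 (SE 0.29, adjusted p 0.000163), and Mcm7 of the subunits the smallest gap, -0.99 (SE 0.18, adjusted p 0.000163). The member that had changed more was Mcm9, by 1.14 (SE 0.14, adjusted p 3.14e-06). Mcm8 had a difference of -0.31, with an interval of -1.02 to 0.39 (adjusted p 0.466), so a gap of up to 1.02 is not excluded by these libraries. For Mcm10 the difference was -1.15 (adjusted p 0.0145), and -0.65 (adjusted p 0.109) without replicate 1 of the EV 0 h group. Without replicate 2 of that group Mcm8 passed, at -0.78 (adjusted p 0.0386).

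These differences include unequal starting levels, so the levels themselves are given beside them. At 12 h of doxycycline the E2F1 line had 0.525 (Mcm5) to 0.856 (Mcm6) times the 12 h serum level in the 6 subunits, and both of its libraries lay below both serum libraries in each. Mcm10 had 0.797 times the serum level, again without overlap. The share of all genes without overlap between these groups was not counted. Mcm8, at 1146 and 1190 against 1189 and 1058, overlapped. Mcm9, at 1663 and 1711 against 805 and 768, had 2.14 times the serum level. Mcm6 was the subunit where E2F1 at 6 h (13434 and 14305) stood above serum at 12 h (11203 and 10095), with values from different times set side by side and not tested.

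**Figure D3:**
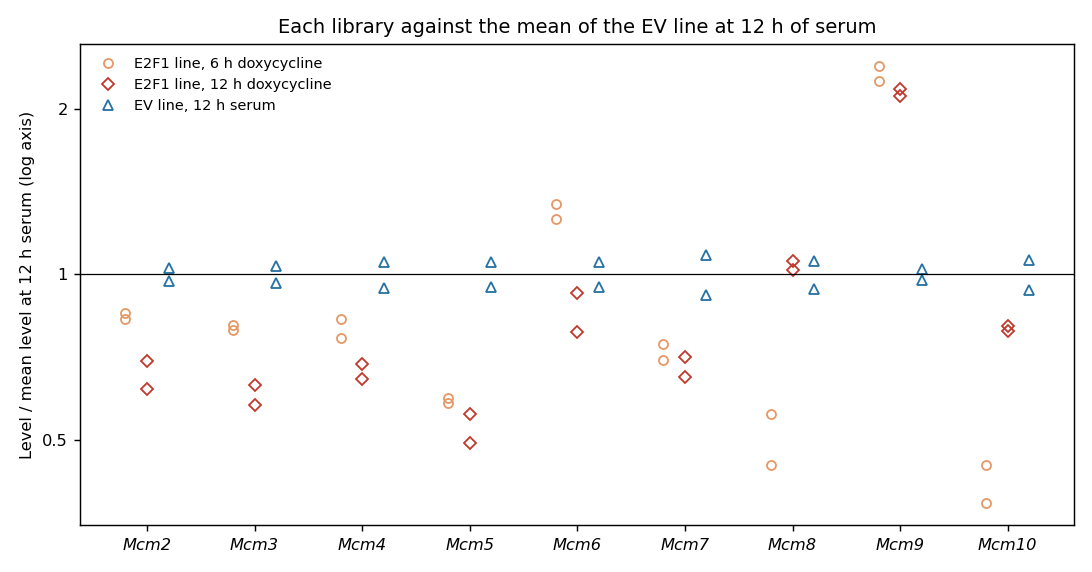
Level of each MCM gene in single libraries of the E2F1 line at 6 h and 12 h of doxycycline, divided by the mean of the EV line at 12 h of serum (log axis, line at 1; triangles are the serum libraries). The 12 h diamonds lie below the triangles for Mcm2 to Mcm7 and Mcm10, overlap them for Mcm8 and lie above them for Mcm9, with a mean of 2.14.

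Mcm8 and Mcm9 act as a pair, yet their RNAs moved apart. Per kilobase of transcript, which allows levels of different genes to be compared, Mcm8 stood at 0.375 and 0.732 times Mcm9 in the EV line at 0 h. The ratio was 2.26 and 2.11 at 12 h of serum. In the E2F1 line it was 0.69 and 0.708 at 0 h, 0.507 and 0.436 at 6 h and 1.06 and 1.07 at 12 h. With these lengths Mcm8 was thus above Mcm9 at 12 h of serum and, narrowly, in the E2F1 line at 12 h, and below it in the other libraries. The lengths were those of the principal transcripts, 3.18 kb for Mcm8 and 4.87 kb for Mcm9. Exons merged over all transcripts, 3.72 kb and 9.11 kb, would raise the ratio by the same factor in every library. Other genes of recombination repair that were looked at as a list were in the table in 3 of 5 cases, and all 3 were called higher with E2F1 at both 6 and 12 h and with serum at 12 h. Their medians were 1.36, 2.00 and 2.34, where 28.8%, 31.8% and 36% of all genes were called higher. Earlier under serum 2 of the 3 were lower at 2 h (median -1.41) and all 3 at 6 h (median -0.80), where 33.5% and 31% of all genes were lower.

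Neighbouring genes bear on how the Mcm9 and Mcm7 counts can be read, since the use of strand in the counting was not given in the sources used here. Mcm9 (ENSMUSG00000058298.10, chromosome 10, 53536315 to 53630439 in GRCm38 with GENCODE M21) overlaps the histone chaperone gene Asf1a on the other strand, with 1748 shared exon bases. In the E2F1 line Asf1a had 640 and 482 at 0 h, 988 and 875 at 6 h and 1010 and 903 at 12 h, changes of 0.74 (adjusted p 0.000247) and 0.78 (adjusted p 9.92e-05). Under serum at 12 h Asf1a changed by 0.66 (adjusted p 0.000446), while Mcm9 had 0.14 there. Its part in the Mcm9 values was not tested. Mcm7 (ENSMUSG00000029730.16, chromosome 5, 138164583 to 138172422) starts 420 bases from Ap4m1, an adaptor complex gene on the other strand. This distance is from the GENCODE start of Mcm7, not from the RefSeq start of the window that held its matches. Mcm7 shares 321 exon bases with Ap4m1 and 64 with Cops6. Ap4m1 had 0.24 at 6 h of E2F1 (adjusted p 0.0771) and fell by 0.39 at 12 h of serum (adjusted p 0.00518), where Mcm7 rose. At 2 h and 6 h of serum Ap4m1 fell by 1.26 (adjusted p 1.24e-08) and by 0.96 (adjusted p 6.41e-07), the times at which Mcm7 was also called lower, by 0.57 and 0.34. In the E2F1 change minus the serum change at 2 h Ap4m1 had 1.42 (adjusted p 6.18e-07), where Mcm7 had 0.66. The part of Ap4m1 in the Mcm7 values was not tested.

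Divergent neighbours of 2 other members, Mcm4 and Mcm8, were also in the table. Prkdc, the catalytic subunit of DNA-dependent protein kinase, starts 466 bases from Mcm4 on the other strand. It changed by -0.26 at 6 h (adjusted p 0.103) and fell by 0.82 at 12 h (adjusted p 2.74e-05) in the E2F1 line, where Mcm4 rose by 1.07 and 0.81. Under serum at 12 h it had -0.18 (adjusted p 0.241). Trmt6, a tRNA methyltransferase subunit, starts 86 bases from Mcm8. It rose by 0.42 (adjusted p 0.0159) and 0.33 (adjusted p 0.045) in the E2F1 line, and serum raised it by 1.15 at 2 h (adjusted p 6.2e-07), when Mcm8 fell, and by 1.41 at 12 h (adjusted p 8.43e-08).

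Partners that load and activate the ring were counted from a list. Of 10 licensing genes (the origin recognition subunits, Cdc6, Cdt1, Gmnn and Mcmbp), 7 were higher in the E2F1 line at 6 h, with a median of 1.00, against 28.8% of all genes and a median of -0.03. By 12 h 8 were higher and 1 was lower (median 0.89), against 31.8% and 29.7% of all genes (median -0.02). At 12 h of serum 9 of 10 were higher, with a median of 1.78, against 36% of all genes and a median of 0.05. Of 16 genes of helicase activation, 15 were higher at 6 h and 15 at 12 h in the E2F1 line (medians 1.13 and 1.79), and 16 at 12 h of serum (median 1.84), beside the same shares of all genes. In the EV line at 12 h of doxycycline 4 licensing and 9 activation genes were lower (medians -0.21 and -0.64), against 3.42% of all genes and a median of 0.00.

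At 6 h in the E2F1 line the highest changes in these lists were those of Wdhd1 (2.74), a replisome scaffold, Clspn (2.23), a fork-bound checkpoint mediator, and Donson (2.07), which helps to assemble the active helicase; the lowest among the called were Gins4 (0.40), Cdc7 (0.55) and Timeless (0.56). At 12 h they were Clspn (2.81), Dbf4 (2.59), the activator of the Cdc7 kinase, and Wdhd1 (2.41), and the lowest were Orc4 (-0.30), Orc1 (0.48) and Orc5 (0.49). Under serum at 12 h Cdc6 (3.33), Wdhd1 (2.98) and Cdc45 (2.66) led, and Orc4 (0.35), Orc5 (0.80) and Cdc7 (0.85) were lowest. Each of these passed the test, with adjusted p of at most 0.0344. Orc3 was called in none of the 3 comparisons, with -0.06, 0.04 and -0.24.

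At 2 h of doxycycline limma called 0 of 9 MCM genes in the E2F1 line, against 1.86% of all genes in either direction, and none had an unadjusted p under 0.05. The changes ran from -0.23 in Mcm8 (interval -0.73 to 0.27) to 0.20 in Mcm3 (interval -0.15 to 0.55). In the EV line at 2 h of doxycycline 2 of 9 were called higher, against 4.93% of all genes: Mcm2 (3641 and 3811 against 2374 and 3123 at 0 h; 0.45, adjusted p 0.0199) and Mcm6 (0.51, adjusted p 0.0476). Neither was called without either library of that 2 h group (0 members) or when only the groups compared were fitted, with adjusted p of 0.0888 and 0.0945. Without replicate 1 of the EV 0 h group 1 member was called, Mcm8, at -0.82 (adjusted p 0.045). These are libraries in which Ddx3y was 71 and 103. The difference between the lines was called for 0 of 9 at 2 h, against 0.143% of all genes, with 1 member, Mcm2, at an unadjusted p under 0.05. Against serum, the E2F1 change at 2 h was higher for 2 of 9, against 26.6% of all genes: Mcm7 (0.66, adjusted p 0.00397) and Mcm9 (0.75, adjusted p 0.000177). Without replicate 2 of the EV 0 h group 4 members were called, 2 of them lower.

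The lines differed in MCM level before any stimulus. At 0 h the E2F1 line exceeded the EV line in 7 of 9 members, against 8.86% of all genes. Mcm6 had the largest difference, 1.10 (SE 0.15, adjusted p 0.000136), with 4817 and 4588 against 1841 and 2596. Mcm10 had 0.83 (SE 0.26, adjusted p 0.0389), Mcm2 had 0.82 (SE 0.11, adjusted p 0.000143), and the other 4 called members had 0.44 (Mcm7) to 0.71. Mcm8 (0.37, adjusted p 0.318) and Mcm9 (-0.04, adjusted p 0.828) were not called. Counts under the E2f1 symbol stood at 1703 and 1637 against 1635 and 1655. Only 3 members were called without replicate 1 of the E2F1 0 h group, and without replicate 1 of the EV 0 h group also 3: Mcm2, Mcm4 and Mcm6 in the latter. The line and the culture it was sampled from cannot be told apart in this contrast.

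Across the 11 groups the order of levels was alike among the subunits. For 5 of the 6, serum at 12 h was highest, then E2F1 at 6 h and then E2F1 at 12 h, and Mcm6 had E2F1 at 6 h first. For 5 of the 6 the lowest group was the EV line at 12 h of doxycycline; for Mcm7 it was serum at 2 h. From lowest to highest group mean the span was 6.15-fold in Mcm7, 6.63-fold in Mcm2, 6.96-fold in Mcm4, 11.3-fold in Mcm6, 13.1-fold in Mcm3 and 19.2-fold in Mcm5. Mcm10 spanned 18.7-fold, Mcm8 8.25-fold and Mcm9 4.03-fold. In the middle of the order neighbours often overlapped: for Mcm5 the EV groups at 0 h, at 2 h of either stimulus and at 6 h of serum followed one another with overlapping libraries. For Mcm7 the E2F1 line at 6 and 12 h overlapped.

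Subunits of a ring are needed in equal numbers. Per kilobase of the principal transcript their RNAs came closest together at 12 h of serum. There the highest subunit (Mcm7, 4601 normalized counts per kb) was 1.35 times the lowest (Mcm5, 3399). At 6 h of E2F1 the highest, Mcm6 (4766), was 2.38 times Mcm5 (2004), and at 12 h of doxycycline in the EV line Mcm7 (786) was 4.44 times Mcm5 (177). The ratio of highest to lowest subunit was 1.96 at 2 h and 2.46 at 6 h of serum, and 1.75 at 12 h of E2F1. With these lengths Mcm5 was the lowest subunit per kilobase in all 11 groups. Lengths are those of the principal GENCODE transcript, 2.91 kb (Mcm6) to 3.59 kb (Mcm4). Another length would shift a gene by the same factor in every library. It could thereby change which subunit is lowest and in which group the subunits come closest. Merged over all transcripts, the exons add up to 6.96 kb in Mcm2 and 3.99 kb in Mcm5.

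**Figure D4:**
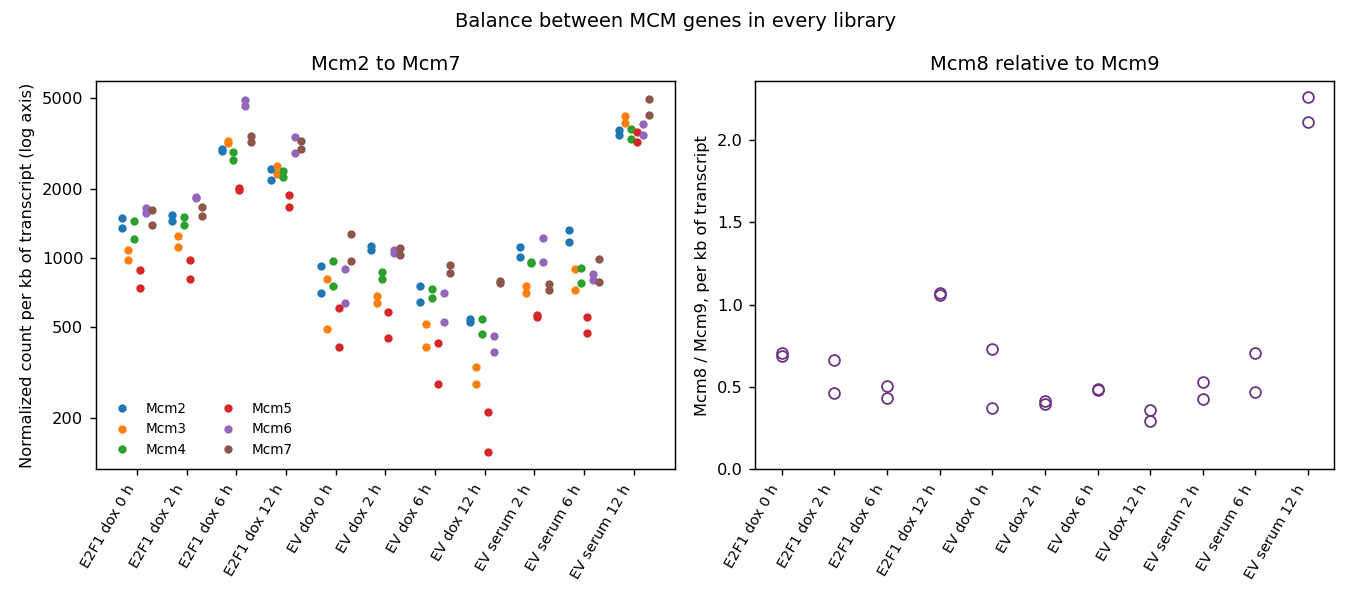
Left, normalized count per kilobase of the principal transcript (log axis) of Mcm2 to Mcm7 in each library of the 11 groups. Right, the ratio of Mcm8 to Mcm9 per kilobase of the principal transcript (axis from 0). The subunits lie within 1.35-fold at 12 h of serum and spread to 4.44-fold at 12 h of doxycycline in the EV line; the ratio is highest at 12 h of serum, at 2.26 and 2.11.

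As a description over the 11 group means, which share 0 h libraries and a time course, pairs of subunits correlated with Pearson r from 0.92 to 0.99. The genes outside the family whose pattern was most like the subunit mean were Hells (r 0.993), a chromatin remodeler, Rpa2 (0.987), a subunit of the single-strand binding protein, Dtl (0.983), Cdc6 (0.982) and Uhrf1 (0.98). Mcm10 was at 0.966 to that mean, Mcm8 at 0.9 and Mcm9 at 0.647. Most like Mcm10 were Cdc45 (0.993), its partner at the helicase, Chek1 (0.984), Recql4 (0.984), Exo1 (0.981) and Haus6 (0.979). Rfc2 (0.988), Ulbp1 (0.981), Aaas (0.98), Slf1 (0.978) and Chtf18 (0.975) were most like Mcm8. For Mcm9 they were Cnpy4 (0.994), Pacc1 (0.99), Lzts3 (0.988), Carhsp1 (0.983) and Tlcd1 (0.981), none of which appears among the 5 nearest to the other patterns.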

How the data were processed

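RNA-seq of 22 NIH/3T3 libraries was taken from a table of normalized counts. The score values are whole numbers that the authors deposited under the name of normalized counts; how they were scaled is not given in the sources used here, and no count model was used. FastQC, Trimmomatic, HISAT2, featureCounts, DESeq2 and mm10 are named in the submitters' processing notes, without versions. Other tables give the log2 fold change and adjusted p-value that the authors deposited for each time against 0 h.

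The model for log2(value + 1), fitted by limma 3.58.1 under R 4.3.3, had 11 group means over 22 libraries, 11 residual degrees of freedom, moderation with a mean-variance trend, and Benjamini-Hochberg adjustment over 11208 genes at 0.05. The filter (10 or more in 2 libraries) removed no gene. On simulated data 199 of 200 changed genes and 16 unchanged genes were called for the 6 h E2F1 comparison over 11208 genes. The simulated log2 changes were at least 1 in size, and the spread of each gene was set from its median over groups. Smaller changes, and groups as uneven as the EV line at 0 h, were not simulated. The MCM members, the gene lists and the motifs were chosen with earlier results of these data known. Named by rule were all 9 members, E2f1, up to 3 highest and 3 lowest called list genes in 3 comparisons, divergent neighbours with starts within 1000 bases, and the 5 genes of most like pattern; Ddx3y, Asf1a, Cops6 and Orc3 were added after their values were seen. Alternatives were a pseudocount of 8, no filter, a mean of at least 500, quantile normalization, equal totals, a block for the replicate number, a fit of only the groups compared, no trend and each library left out, where a lone library is assumed to vary like other groups. Leaving out all 2 h libraries was chosen after seeing the data. Tables and figures were made in Python 3.11.15 (pandas 2.3.3, numpy 2.4.6, matplotlib 3.10.9).

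GENCODE M21 on GRCm38 gave the positions; 10977 of 11208 identifiers matched it with the same version. Depth in reads is unknown, and 2 libraries per group limit precision. Protein sequences were not used here.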

Additional observations from a re-analysis of the deposited data

Results flagged for a closer look

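The change under doxycycline differed between the E2F1 line and the EV line in every MCM gene, by the test of the difference itself at 6 h and at 12 h (limma, adjusted over 11208 genes). Over all genes 22.2% were called higher at 6 h and 27.3% at 12 h. The 6 h difference was least secure in Mcm8 and Mcm10. Over the alternatives tried it ran from 0.58 to 1.50 in Mcm8 and from 0.69 to 1.71 in Mcm10. At 6 h the E2F1 change exceeded the EV change by 1.27 in Mcm2, 2.10 in Mcm3, 1.36 in Mcm4, 1.82 in Mcm5, 1.87 in Mcm6, 1.45 in Mcm7, 1.04 in Mcm8, 1.50 in Mcm9 and 1.20 in Mcm10, on the log2 scale. At 12 h it did so by 1.30 in Mcm2, 2.27 in Mcm3, 1.59 in Mcm4, 2.64 in Mcm5, 1.79 in Mcm6, 1.55 in Mcm7, 2.52 in Mcm8, 1.23 in Mcm9 and 3.07 in Mcm10. The 12 h differences include falls in the EV line, which limma called in 7 of the 9 members, against 3.42% of all genes. The 0 h level of 7 of these genes was also higher in the E2F1 line, against 8.86% of all genes. A sample far from the others could not be looked for with 2 libraries per group.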

How the results depend on the processing

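With 2 libraries per group, both single libraries and the settings moved some of the counts. The counts of members called at 6 and 12 h in the E2F1 line, at 12 h of serum and in the differences between the lines at 6 and 12 h stayed within 1.5 times their value under each setting tried. The EV 2 h count of 2 became 1 under quantile normalization, 1 without the mean-variance trend and 0 with only the groups compared. The serum 2 h count of 5 became 3 under quantile normalization and 3 under equal totals. The count between the lines at 0 h went from 7 to 4 without the trend and 3 with only the groups compared, and the EV 12 h count from 7 to 1 with only the groups compared.

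Leaving out each library in turn gave 0 to 2 members for EV 2 h, 0 to 1 for EV 6 h, 1 to 8 for EV 12 h, 3 to 7 for serum 2 h, 3 to 5 for serum 6 h, 2 to 4 for E2F1 minus serum at 2 h, 2 to 3 for E2F1 12 h against 6 h and 3 to 8 for the lines at 0 h.

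Of 171 member values, 108 were called, and none of these changed sign under any setting. A sign changed at least once in 38 uncalled values, each with an adjusted p of at least 0.0665. Under quantile normalization these were Mcm3 (-0.01) and Mcm4 (-0.17) at serum 2 h, Mcm5 (-0.08), Mcm6 (-0.04), Mcm8 (0.02) and Mcm10 (0.06) at serum 6 h, Mcm10 (-0.03) in E2F1 minus EV at 2 h, Mcm3 (0.20), Mcm4 (0.29) and Mcm5 (0.13) in E2F1 minus serum at 2 h, and Mcm9 (-0.02) in serum against doxycycline at 12 h. Under equal totals they were Mcm9 (0.02) at EV 2 h, Mcm3 (-0.16), Mcm4 (-0.22), Mcm5 (-0.20) and Mcm10 (-0.06) at serum 2 h, Mcm5 (-0.17) and Mcm6 (-0.08) at serum 6 h, and Mcm10 (-0.01) in E2F1 minus EV at 2 h. In E2F1 minus serum at 2 h they were Mcm2 (0.05), Mcm3 (0.36), Mcm4 (0.35), Mcm5 (0.34), Mcm6 (0.03) and Mcm10 (0.20), and Mcm9 had -0.01 in serum against doxycycline at 12 h and 0.00 between the lines at 0 h. Equal totals moved the median of all genes by -0.374 at serum 2 h, by -0.214 at serum 6 h and by 0.373 in E2F1 minus serum at 2 h.

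With single libraries left out the ranges that crossed 0 were as follows. In the E2F1 line at 2 h Mcm7 ran from -0.02 to 0.20 and Mcm10 from -0.15 to 0.43. At EV 2 h Mcm3 ran from -0.30 to 0.43, Mcm4 from -0.22 to 0.15, Mcm5 from -0.24 to 0.33, Mcm7 from -0.25 to 0.14, Mcm8 from -0.82 to 0.11, Mcm9 from -0.04 to 0.04 and Mcm10 from -0.37 to 0.64. At EV 6 h Mcm8 ran from -0.68 to 0.25 and Mcm10 from -0.85 to 0.16, and at EV 12 h Mcm9 from -0.02 to 0.13. At serum 2 h Mcm3 ran from -0.15 to 0.57, Mcm4 from -0.03 to 0.34, Mcm5 from -0.11 to 0.46 and Mcm10 from -0.20 to 0.82. At serum 6 h Mcm3 ran from -0.01 to 0.72, Mcm4 from -0.21 to 0.15, Mcm5 from -0.24 to 0.32, Mcm6 from -0.11 to 0.39, Mcm8 from -0.79 to 0.14 and Mcm10 from -0.72 to 0.29. In E2F1 minus EV at 2 h Mcm3 ran from -0.23 to 0.49, Mcm4 from -0.02 to 0.35, Mcm5 from -0.19 to 0.38, Mcm7 from -0.05 to 0.34, Mcm8 from -0.34 to 0.59 and Mcm10 from -0.50 to 0.51. In E2F1 minus serum Mcm3 ran from -0.38 to 0.35, Mcm4 from -0.21 to 0.16, Mcm5 from -0.32 to 0.25 and Mcm10 from -0.68 to 0.34 at 2 h, and Mcm8 from -0.78 to 0.15 at 12 h. Between the lines at 0 h Mcm8 ran from -0.09 to 0.84. Beyond fewer samples, the cause was not tested.

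Replicate numbers are shared by all groups. Deviations of same-numbered libraries correlated at -0.28 to 0.45 over 55 pairs of groups (median 0.03, with 18 over 0.1). The median gave little sign of a pairing common to all groups, and pairing among some of the groups was not tested. With the replicate block 9 members were called at 6 h and 9 at 12 h in the E2F1 line, 7 at EV 12 h and 8 at serum 12 h, and no call of a member changed. Mcm8 is outside the fit restricted to a mean of at least 500. The planned comparison of protein sequences was not run.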
